A study of Mus musculus with 14 samples.

Results

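The 10 genes examined here encode enzymes and regulators of gluconeogenesis, the making of new glucose by the liver. They were chosen by symbol: *G6pc*, *Slc37a4*, *Pck1*, *Pck2*, *Fbp1*, *Pcx*, *Ppargc1a*, *Foxo1*, *Sds* and *Gcgr*. Each symbol matched 1 of the 55487 genes in the count table, and all 10 had enough reads to be tested. The data are strand-specific mRNA libraries from the right liver lobe of 14 male TALLYHO/JnG mice, young adults of an inbred strain that is used as a polygenic model of type 2 diabetes. All 14 were of this strain, and the labels name no introduced allele. The vehicle group of 7 mice received water by oral gavage and the indole group of 7 mice received 20 mg/kg indole, a tryptophan metabolite made by gut bacteria, as 2 doses a day on 7 consecutive days. Both groups then went through metabolic tests with 2 further doses between them, and livers were taken one day after the second test. The time since the last meal at collection is not given in the sources used here. In the text each mouse carries the name of its library, G1 to G14.

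Gluconeogenesis runs lactate, amino acids and glycerol back to glucose. Most of its steps are glycolysis in reverse, and a few bypass reactions make it one-way: pyruvate carboxylase (*Pcx*) and phosphoenolpyruvate carboxykinase (*Pck1* in the cytosol, *Pck2* in mitochondria) around pyruvate kinase, fructose bisphosphatase (*Fbp1*) around phosphofructokinase, and glucose-6-phosphatase (*G6pc*) with its transporter (*Slc37a4*) at the last step. Glucagon, acting through its receptor (*Gcgr*) and cAMP, raises transcription of *Pck1*, *G6pc* and the coactivator *Ppargc1a*, while insulin lowers it by keeping the transcription factor FOXO1 out of the nucleus. Serine dehydratase (*Sds*) turns serine into pyruvate and belongs to the same fasting response. The study gave indole to diabetic mice and measured glucose handling; the comparison made here asks whether these liver transcripts differed between the groups and how they varied from mouse to mouse.

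Reads counted on genes numbered 15390922 to 21060376 in a vehicle library and 15197498 to 18464326 in an indole library. The tissue label held in every mouse: 9 of 10 listed hepatocyte markers were found in the table, and together they made up 77640 to 112353 CPM, counts scaled to a common library total. Of the 9, *Ttr* was higher with indole at an unadjusted *p* below 0.05 (log2 fold change 0.24). Levels below are CPM after TMM scaling, a correction for differences in library composition. In bulk tissue, fewer hepatocytes and less RNA per hepatocyte cannot be told apart. Some markers of other cells leaned one way with indole, none of them at an adjusted *p* below 0.05. Over all 12653 genes tested, 51.3% were higher with indole, and 3.81% had an unadjusted *p* below 0.05 in either direction. All 5 tested erythroid genes were higher with indole at that *p*. The sum of the list ran from 204.0 to 383.9 CPM in the vehicle group and from 263.1 to 1092 CPM in the indole group. G2, G5, G12 and G14 stood above the vehicle range, and G3, G7 and G8 lay within it. How far the 5 genes vary together was not tested. All 11 markers of periportal hepatocytes, the zone where gluconeogenic enzymes are most abundant, had a lower mean with indole, 2 of them at an unadjusted *p* below 0.05. Their sum overlapped between the groups, from 16145 to 20948 CPM with vehicle and from 12149 to 20089 CPM with indole. G2 (12149 CPM) and G3 (14164 CPM) stood below the vehicle range, and the other mice given indole lay within it. How far the 11 genes vary together was not tested. *Gls2* and *Sdsl* of that list are also counted among the substrate genes below, and *Cps1* among the hepatocyte markers. Endothelial markers were higher in 8 of 8 and Kupffer cell markers in 9 of 10, with 1 and 0 below an unadjusted *p* of 0.05. The Kupffer cell sum ran from 95.5 to 256.3 CPM with vehicle and from 116.9 to 470.8 CPM with indole. Only G8, at 470.8 CPM, stood above the vehicle range, and the other mice given indole lay within it. Bile duct markers were lower in 5 of 5, with 1 below an unadjusted *p* of 0.05. The pericentral list had 7 of 10 genes higher and 0 below that *p*, and the stellate cell list 4 of 8 higher with 1 lower at that *p*. Of the acinar list only *Cela1* had enough reads, and it was higher at that *p* (log2 fold change 0.30), and of 6 skeletal muscle markers 4 were at 0 in every mouse. The part of any of these shifts in the values below was not tested.

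None of the 10 transcripts passed the test for a difference between indole and vehicle. Of the 12653 genes tested with edgeR, 0% had a Benjamini–Hochberg adjusted *p* below 0.05, and the 10 genes accordingly had 0 (adjusted *p*=0.998 for each, edgeR). At an unadjusted *p* below 0.05 there were 482 of the 12653 genes, or 3.81%, and 0 of the 10. Groups of 7 that did not overlap were found for 6 genes, or 0.0474% of those tested, and for 0 of the 10. The fold change leaned upward for 6 of the 10 genes and downward for 4, with a median of 0.01 on the log2 scale, beside 6489 upward, 6164 downward and a median of 0.00 over all genes tested.

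**Figure D1:**
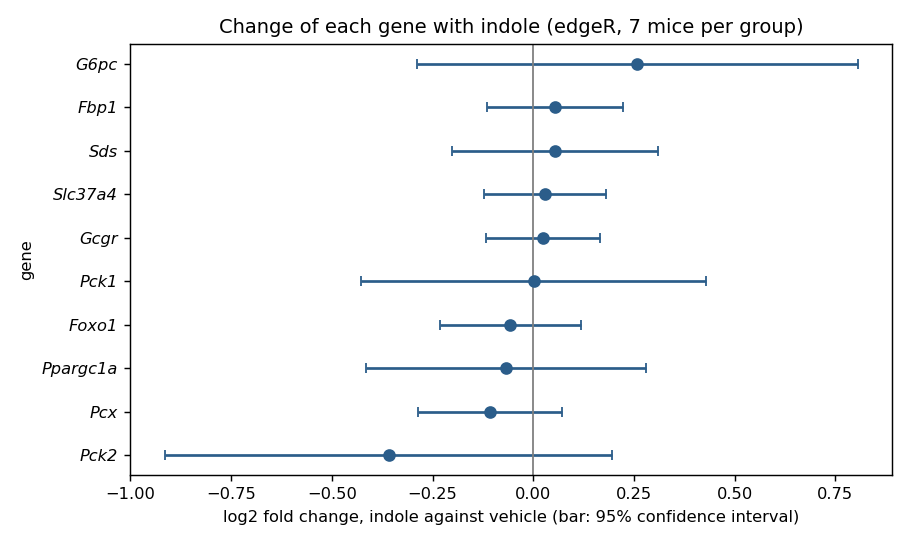
Log2 fold change of each of the 10 genes, indole against vehicle, with its 95% confidence interval from edgeR (7 mice per group). Every interval crosses 0; the intervals of *Pck2* and *G6pc* are the widest and those of *Gcgr* and *Slc37a4* the narrowest.

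The entry of pyruvate was measured by *Pcx*, which makes oxaloacetate from pyruvate in mitochondria (ENSMUSG00000024892, chromosome 19 of GRCm38 from 4510472 to 4621752). It ran from 656.5 CPM through a median of 681.1 to 819.4 CPM in vehicle-treated mice, and from 583.1 through 635.6 to 779.0 CPM in indole-treated mice. The levels of 4 mice given indole were under the whole vehicle range, while the others (G7, G12 and G14) lay within it. The means were 718.5±67.9 and 667.2±82.7 CPM (SD, *n*=7 each). The log2 fold change of −0.11 (standard error 0.0859, 95% CI −0.29 to 0.07) was within the spread between mice (two-sided exact permutation *p*=0.206, from log2 CPM, as below).

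The next step, from oxaloacetate to phosphoenolpyruvate, has a cytosolic and a mitochondrial enzyme. The cytosolic gene *Pck1* (ENSMUSG00000027513, chromosome 2 from 173153048 to 173159273) ran from 1283 through 2012 to 2680 CPM with vehicle and from 1122 through 2126 to 3001 CPM with indole. Both the lowest mouse of all 14 (G2) and the highest (G12) were indole-treated, so the indole group enclosed the vehicle group. The means were almost the same, 2095±466.1 and 2097±637.6 CPM (SD, *n*=7 each). Its log2 fold change was 0.00 (standard error 0.200, 95% CI −0.43 to 0.43, exact permutation *p*=0.903), an interval that leaves room for a change of either sign. The mitochondrial gene *Pck2* (ENSMUSG00000040618, chromosome 14 from 55540266 to 55551242) was barely expressed, with 15 to 72 reads per mouse. Its levels ran from 1.22 through 1.81 to 3.71 CPM with vehicle and from 0.849 through 1.68 to 2.49 CPM with indole. The vehicle maximum came from G1 alone. Its fold change on the log2 scale was −0.36 (standard error 0.266, 95% CI −0.91 to 0.20, exact permutation *p*=0.269) and shrank to −0.14 without vehicle-treated mouse G1.

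*Fbp1* (ENSMUSG00000069805, chromosome 13 from 62864753 to 62888282, reverse strand), which removes a phosphate from fructose bisphosphate, had a narrow range. It ran from 1960 through 2223 to 2440 CPM with vehicle and from 1910 through 2337 to 2588 CPM with indole. The lowest mouse was again G2, and G5 and G12 stood above the whole vehicle group. This made a log2 fold change of 0.05 (standard error 0.0811, 95% CI −0.11 to 0.22, exact permutation *p*=0.492).

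*G6pc* (ENSMUSG00000078650, chromosome 11 from 101367561 to 101377903) encodes the catalytic subunit that frees glucose for export. It ran from 102.8 through 141.4 to 239.2 CPM with vehicle and from 112.7 through 150.8 to 344.1 CPM with indole. A single mouse in each group, G11 with vehicle and G12 with indole, stood above the others. The means of 150.3±43.9 and 179.8±78.9 CPM (SD, *n*=7 each) gave a log2 fold change of 0.26 (standard error 0.253, 95% CI −0.29 to 0.81, exact permutation *p*=0.440). It was 0.02 without indole-treated mouse G12 and 0.41 without vehicle-treated mouse G11. *Slc37a4* (ENSMUSG00000032114, chromosome 9 from 44396852 to 44402968), the transporter that brings glucose-6-phosphate to the phosphatase, had a narrow range too. It ran from 236.7 through 301.0 to 312.3 CPM with vehicle and from 270.3 through 296.4 to 314.9 CPM with indole. Its log2 fold change was 0.03 (standard error 0.0729, 95% CI −0.12 to 0.18, exact permutation *p*=0.631).

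*Sds* (ENSMUSG00000029597, chromosome 5 from 120476526 to 120483932) ran from 354.2 through 435.4 to 508.1 CPM with vehicle and from 313.8 through 432.5 to 644.5 CPM with indole. Here too the indole group held both extremes, G2 at the bottom and G5 at the top, with the medians side by side. A log2 fold change of 0.05 was found (standard error 0.122, 95% CI −0.20 to 0.31, exact permutation *p*=0.816), which became −0.06 without G5. *Sds* overlaps *Plbd2* on the opposite strand, on which 16566 reads were counted over all mice. The strand setting of the counting is not given in the sources used here, so reads of such partners may not be separable; the same holds for *Gcgr* and the antisense gene *Gm11789* (8443 reads).

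The regulators did not pass the test either. *Gcgr* (ENSMUSG00000025127, chromosome 11 from 120530699 to 120538986), the glucagon receptor, ran from 143.6 through 151.6 to 164.2 CPM with vehicle and from 134.1 through 160.0 to 172.1 CPM with indole, a log2 fold change of 0.02 (standard error 0.0676, 95% CI −0.12 to 0.17, exact permutation *p*=0.698). *Foxo1* (ENSMUSG00000044167, chromosome 3 from 52268336 to 52353221), the insulin-restrained activator, ran from 32.4 through 36.5 to 39.8 CPM with vehicle and from 31.1 through 32.9 to 43.9 CPM with indole, with 3 indole-treated mice below the vehicle range and 1 (G12) above it. Its log2 fold change was −0.06 (standard error 0.0840, 95% CI −0.23 to 0.12, exact permutation *p*=0.441). *Ppargc1a* (ENSMUSG00000029167, chromosome 5 from 51454250 to 51567726, reverse strand), the coactivator induced by glucagon, was counted on 86 to 204 reads per mouse. It ran from 6.57 through 7.87 to 10.4 CPM with vehicle and from 4.52 through 7.47 to 11.5 CPM with indole, again with G2 lowest and G12 highest. Its log2 fold change was −0.07 (standard error 0.167, 95% CI −0.41 to 0.28, exact permutation *p*=0.605) and was 0.03 without G2.

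**Figure D2:**
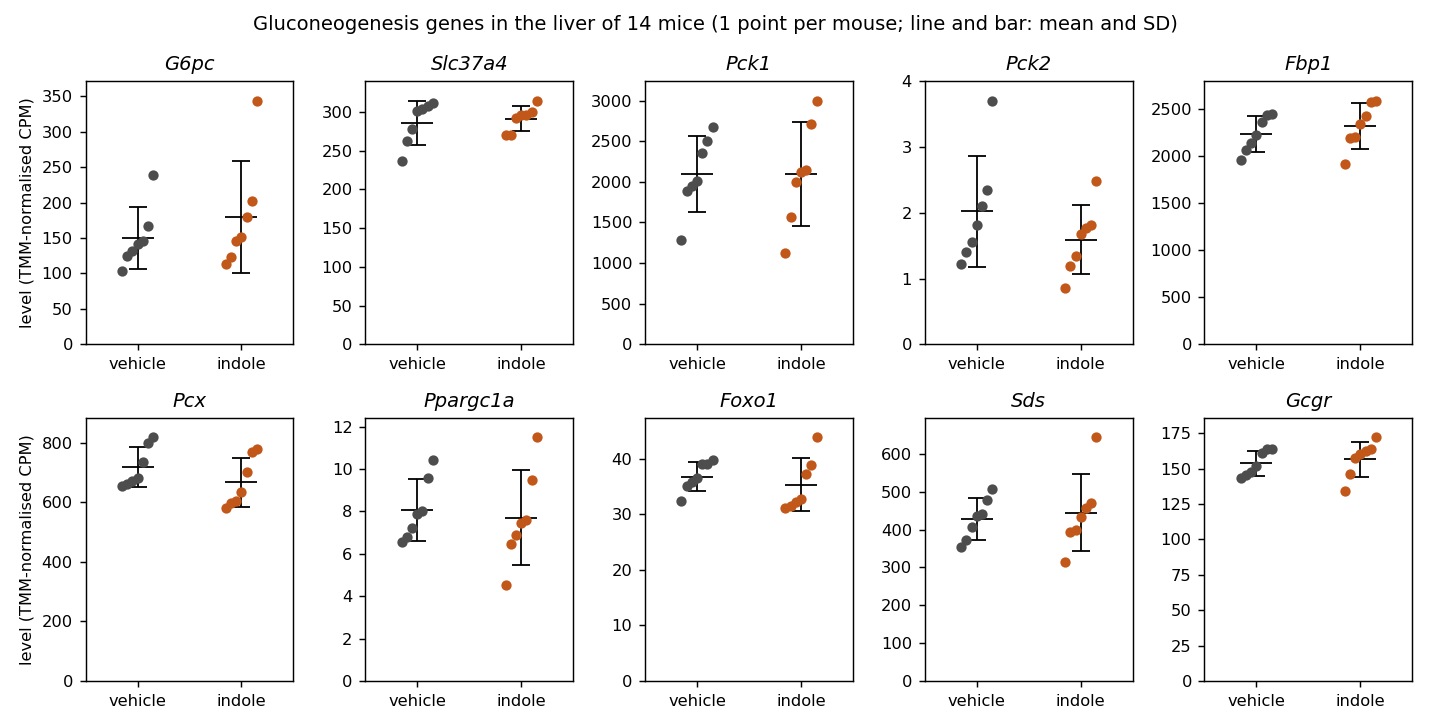
Level of each of the 10 genes in TMM-normalised CPM, with 1 point per mouse and the mean and SD of each group of 7 (axes start at 0). The groups overlap for every gene, and the spread within a group is wide for *G6pc*, *Pck1*, *Pck2* and *Ppargc1a* and narrow for *Slc37a4*, *Fbp1* and *Gcgr*.

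Per length of gene (RPKM, the CPM divided by the gene length in kilobases), the order of the 10 genes was nearly the same in every mouse. The gene length is that of the count table, 7806 bases for *Pck2*. It may differ from that of the transcripts made in liver, which limits the comparison between genes. *Fbp1* was at the top with a level of 1336 RPKM over the 14 mice, followed by *Pck1* (611.4), *Sds* (257.6), *Pcx* (145.8), *Slc37a4* (101.0), *G6pc* (68.4), *Gcgr* (59.2), *Foxo1* (4.17), *Ppargc1a* (1.20) and *Pck2* (0.231). Each gene exceeded the next in all 14 mice except at 2 places. *Slc37a4* exceeded *G6pc* in 12 of 14 mice, and *G6pc* exceeded *Gcgr* in 7 of 14, so the order of that last pair is not determined. *Foxo1* and *Ppargc1a* thus stood well below every enzyme but *Pck2*, and the cytosolic carboxykinase far above the mitochondrial one.

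The genes differed in their spread between mice. Over the 14 mice the coefficient of variation of the level was 38.3% for *G6pc*, 25.6% for *Pck1*, 23.1% for *Ppargc1a* and 18.2% for *Sds*, beside a median of 16.5% over all genes tested. It was 11.2% for *Pcx*, 10.5% for *Foxo1*, 9.34% for *Fbp1*, 7.70% for *Slc37a4* and 6.80% for *Gcgr*. *Gcgr* varied less than nearly all genes, with only 3.15% of those tested below it, and *G6pc* varied more than 87.6% of them. The value for *G6pc* turned on G12, without which it was 25.1%, above 72.2% of the genes. That for *Sds* turned on G5, without which it was 12.8%, above only 36.4% of the genes. Counting error accounts for little of this in the abundant genes, since it is 0.523% at the mean count of *Pck1* and 1.85% at that of *G6pc*. It is 8.46% for *Ppargc1a* and 17.6% for *Pck2*. The coefficient of variation of *Pck2*, 39.3%, is therefore partly sampling, and it was 28.4% without G1. These errors cover counting only.

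The ends of this spread fell on several mice. Indole-treated G2 was the lowest of the 14 for *Pck1*, *Fbp1*, *Ppargc1a* and *Sds* and the highest for *Gcgr*. G12 was the highest for *G6pc*, *Pck1*, *Ppargc1a* and *Foxo1*. Vehicle-treated G1 was the lowest for *G6pc* and *Slc37a4* and the highest for *Pck2*, and indole-treated G5 was the highest for *Fbp1* and *Sds* and G3 the lowest for *Pcx* and *Foxo1*. The depths of G2 and G12, 17740715 and 18464326 reads, lay within the range of the vehicle group. G2 also had the lowest sum of hepatocyte markers (77640 CPM) and of periportal markers (12149 CPM) of the 14 mice. The low hepatocyte sum was shared by G1, G3 and G4. It ran from 77640 to 86084 CPM in G1 to G4 and from 96333 to 112353 CPM in G5 to G14. The TMM scaling factors of G1 to G4, from 1.073 to 1.083, were also above that of every other mouse. G1 and G4 are vehicle-treated, and G2 and G3 indole-treated. Whether this split enters the spread and the correlations between mice was not tested. G12 had the lowest sum of stellate cell (188.9 CPM) and bile duct markers (27.5 CPM). The part of tissue composition in the position of G2 and G12 was not tested.

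The start regions of 3 of the variable genes are shown because glucagon and insulin are known to act on these genes in part through short elements near the start site. RefSeq windows on GRCm38.p6, from 250 bases before to 50 bases after the start site, were found for 9 of the 10 genes (12 windows), and none for *Sds*. Each is written 5′ to 3′ on the strand of the gene. Capitals mark the core of the cAMP response element (ACGTCA) in *Pck1* and *Ppargc1a*, and the core of an insulin response element (TGTTTTG) in *G6pc*.
Pck1, chr2:173152823-173153122, forward strand: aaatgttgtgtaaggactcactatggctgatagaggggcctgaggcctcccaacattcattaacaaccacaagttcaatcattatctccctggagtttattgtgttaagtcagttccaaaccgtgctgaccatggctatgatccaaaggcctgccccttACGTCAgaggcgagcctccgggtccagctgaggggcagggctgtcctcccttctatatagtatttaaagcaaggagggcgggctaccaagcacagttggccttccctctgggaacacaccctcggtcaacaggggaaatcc
Ppargc1a, chr5:51567676-51567975, reverse strand: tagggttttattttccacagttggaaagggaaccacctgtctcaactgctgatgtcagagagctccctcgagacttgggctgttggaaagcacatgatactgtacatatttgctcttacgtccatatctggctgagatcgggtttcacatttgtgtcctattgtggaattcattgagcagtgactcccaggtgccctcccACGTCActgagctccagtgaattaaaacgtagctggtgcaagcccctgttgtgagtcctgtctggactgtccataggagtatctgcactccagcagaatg
G6pc, chr11:101367466-101367765, forward strand: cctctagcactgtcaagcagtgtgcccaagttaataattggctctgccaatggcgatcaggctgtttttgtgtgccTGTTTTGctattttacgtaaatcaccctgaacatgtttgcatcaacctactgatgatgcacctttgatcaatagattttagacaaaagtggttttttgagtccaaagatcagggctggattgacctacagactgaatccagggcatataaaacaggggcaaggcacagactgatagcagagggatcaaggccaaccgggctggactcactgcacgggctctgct
The cAMP core stood at −91 to −86 in *Pck1* and −50 to −45 in *Ppargc1a*, counted from the start site, and also in *Slc37a4* on the other strand. Searched on both strands, it is held by 7.51% of all 32851 windows, and the insulin core, found in *G6pc* at −174 to −168 and in *Pck2*, by 6.28%. The FOXO core TGTTTAC (3.65% of windows) and the glucocorticoid half-site TGTTCT (19.0%) occurred in the windows of none of the 9 genes. These motifs were picked after the windows had been seen, and a match describes the letters only. Only these exact letters were searched, so a window without a match, such as that of *G6pc* for the cAMP core, may hold other forms. Elements further from the start site lie outside the windows.

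The 10 genes form 45 pairs, and none covaried between mice at an adjusted *p* below 0.05 (log2 CPM, 100000 resamples, Benjamini–Hochberg over 45). The correlation was positive for 29 pairs and negative for 16, with a median Pearson's *r* of 0.16, and 7 pairs had an unadjusted *p* below 0.05. By Pearson's *r* the pair with the smallest *p* joined the consecutive bypass enzymes *Pck1* and *Fbp1*, with *r*=0.718 (permutation *p*=0.00362, adjusted *p*=0.163) and Spearman's ρ=0.741 (permutation *p*=0.00340, adjusted *p*=0.0765). With each group centred on its own mean it was 0.740. Within the vehicle group *r* was 0.413 (exact permutation *p*=0.376) and within the indole group 0.933 (exact permutation *p*=0.00397), a difference that was not tested. Without G2 and G13, the mice farthest from the *Pck1* median, it was 0.588. *Fbp1* and *Sds* followed with *r*=0.652 (permutation *p*=0.00972, adjusted *p*=0.219) and ρ=0.587 (permutation *p*=0.0296, adjusted *p*=0.397), falling to *r*=0.432 without G2 and G4. *Pck1* and *Ppargc1a* had *r*=0.616 (permutation *p*=0.0198, adjusted *p*=0.224) and ρ=0.415 (permutation *p*=0.140, adjusted *p*=0.527), and *r*=0.262 without G2 and G13, so that relation rested on those mice. By rank the smallest *p* was that of *Sds* and *Gcgr*, which varied in opposite directions, with ρ=−0.763 (permutation *p*=0.00235, adjusted *p*=0.0765) but *r*=−0.497 (permutation *p*=0.0701, adjusted *p*=0.387). *G6pc* and *Pck1*, the classical pair of hormone-controlled enzymes, had *r*=0.21, and *G6pc* and *Ppargc1a* *r*=0.09. Neither sign was stable. Without G11 and G12, the mice farthest from the *G6pc* median, *r* was −0.38 and −0.61, and leaving out single mice gave −0.12 to 0.45 and −0.42 to 0.33.

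**Figure D3:**
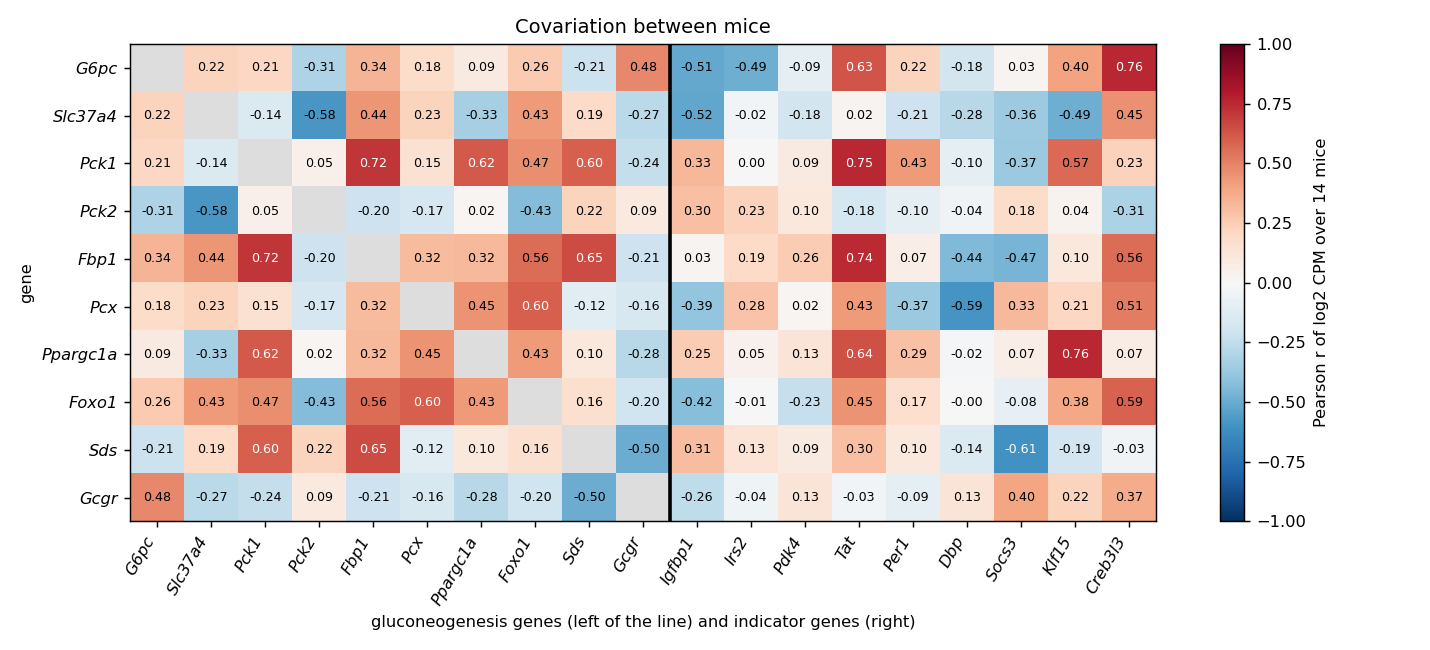
Pearson's *r* of log2 CPM over the 14 mice, for the 10 genes with each other (left of the line) and with 9 indicator genes (right). *Pck1*, *Fbp1* and *Sds* have *r* from 0.60 to 0.72 with each other over the 14 mice, none at an adjusted permutation *p* below 0.05. For *Pck1* and *Sds* it falls from 0.60 to 0.20 without G2 and G13.

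To place this variation, each gene was related to 10 indicator genes whose hormonal control is well known, 100 relations in all. Those described here are *Igfbp1* and *Irs2*, which insulin represses; *Pdk4*, *Tat*, *Klf15* and *Creb3l3*, which fasting or glucocorticoid raises; the clock genes *Per1* and *Dbp*; and *Socs3*, which IL-6 induces. All but the clock genes and *Socs3* also stand in the lists described further on. Of the 100, 13 had an unadjusted *p* below 0.05, and 6 an adjusted *p* of 0.0453, of which 4 are described. *Pck1* and *Fbp1* were higher where *Tat* was high, the gene of the amino acid catabolic enzyme tyrosine aminotransferase. *Pck1* gave *r*=0.752 (permutation *p*=0.00272) and ρ=0.745 (permutation *p*=0.00299), and *Fbp1* gave *r*=0.745 (permutation *p*=0.00206) and ρ=0.648 (permutation *p*=0.0142). *Ppargc1a* was related to *Klf15*, *r*=0.757 (permutation *p*=0.00123) and ρ=0.851 (permutation *p*=0.000260), and *G6pc* to *Creb3l3*, *r*=0.757 (permutation *p*=0.00195) and ρ=0.705 (permutation *p*=0.00666).

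These 6 calls stand at the edge of the threshold. The count stayed at 6 with each group centred on its own mean, with RLE scaling and with a smaller prior count. By Spearman's ρ only *Ppargc1a* with *Klf15* kept an adjusted *p* below 0.05 (0.0260), the other 3 described lying between 0.0997 and 0.237. Leaving out 1 mouse at a time gave 4 such relations without G6 and 0 or 1 without any other mouse, and leaving out the 2 mice farthest from the median of the first gene gave 0. Without those 2 mice *r* was 0.657 for *Pck1* with *Tat*, 0.725 for *Fbp1* with *Tat*, 0.775 for *Ppargc1a* with *Klf15* and 0.468 for *G6pc* with *Creb3l3*. *Fbp1* with *Tat* was 0.368 with vehicle (exact permutation *p*=0.489) and 0.918 with indole (exact permutation *p*=0.00556), a difference that was not tested.

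**Figure D4:**
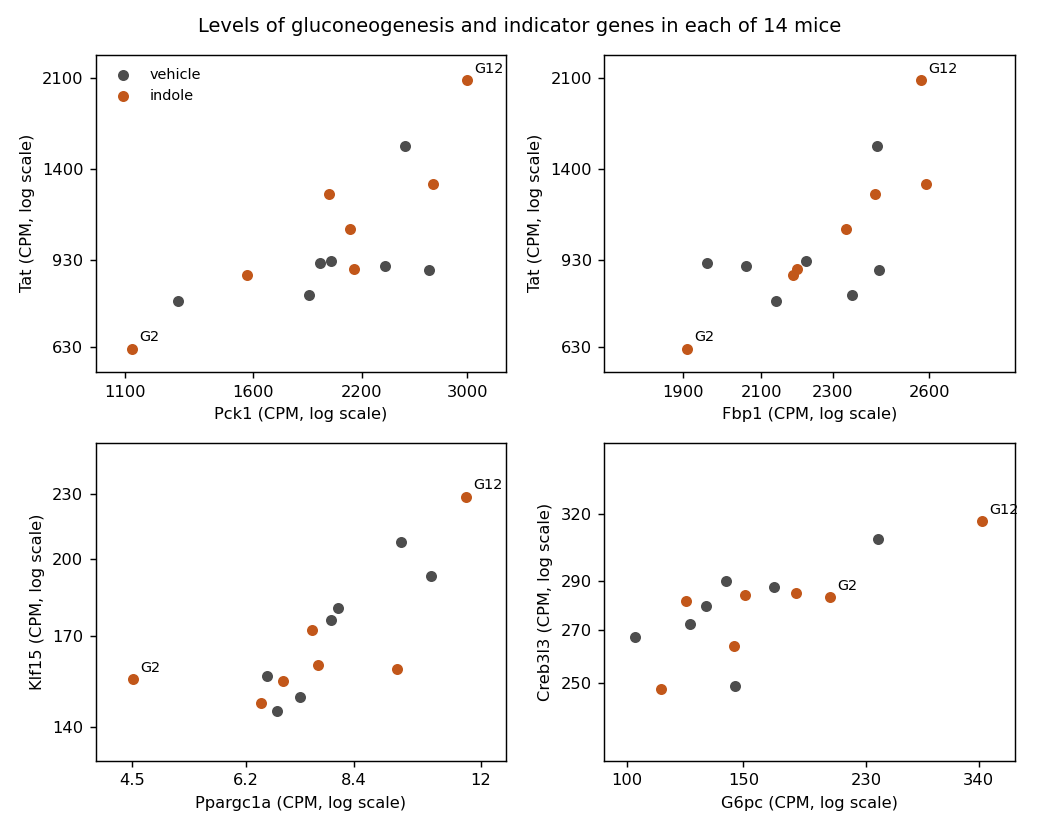
Levels in each of the 14 mice (CPM, log axes) for 4 relations with an adjusted permutation *p* of 0.0453, vehicle in grey and indole in orange. G2, with the lowest *Pck1*, and G12, with the highest *Tat* (2080 CPM), lie at the ends of the *Tat* axis in both its panels.

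Of the 9 indicators described only *Socs3* had an unadjusted *p* below 0.05 between the groups. It stood at 4.69±3.29 CPM with vehicle and 1.97±1.02 CPM with indole (SD, *n*=7 each), on 14 to 243 reads per mouse. The log2 fold change of *Socs3* was −1.25 (standard error 0.412, unadjusted *p*=0.00837 and adjusted *p*=0.998 from edgeR, exact permutation *p*=0.0251). Vehicle-treated G13 was at 11.5 CPM, and the other vehicle-treated mice ran from 1.56 to 5.32 CPM. The log2 fold change was 0.16 for *Igfbp1*, 0.01 for *Irs2*, 0.39 for *Pdk4*, 0.26 for *Tat*, 0.04 for *Per1*, −0.06 for *Dbp*, −0.04 for *Klf15* and 0.01 for *Creb3l3*, each with an unadjusted *p* above 0.05.

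Among the 12652 other genes tested, those that tracked each member most closely were looked up by Pearson's *r* over the 14 mice. As the highest of so many they are a description, with no test. *Pck1* was most like *Gpt*, alanine aminotransferase (0.880), *Anp32a* (0.855) and *Cth*, which makes cysteine from cystathionine (0.855). Without G2 and G13 these correlations of *Pck1* were 0.681, 0.730 and 0.626. *Fbp1* was most like *Asl*, argininosuccinate lyase of the urea cycle (0.930), *Got1*, cytosolic aspartate aminotransferase (0.918), and *Cyp2d22* (0.911). *Sds* was most like *Mdh2*, mitochondrial malate dehydrogenase (0.928), *Gsto1* (0.921) and *Sptssa* (0.916).

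The other members had different neighbours. *Pcx* was most like *Arhgap35* (0.920) and the plasma protein genes *Fn1* (0.906) and *C3* (0.899). *Ppargc1a* was most like *Mknk2* (0.917), *Ppm1k*, the phosphatase that activates branched-chain keto acid breakdown (0.903), and *Rdx* (0.886). *Slc37a4* was most like *Imp4* (0.845), *Serbp1* (0.833) and *Paqr7* (0.831, but 0.492 without the 2 mice farthest from the *Slc37a4* median), and *Foxo1* like *Fadd* (0.872), *Zfp791* (0.843) and the glutamine transporter *Slc38a3* (0.818). *Gcgr* was most like *Gm20337* (0.898, at a level of only 0.70 CPM), *Arfip2* (0.867) and *Fance* (0.860). *G6pc* was most like *Sarnp* (0.827), *Gm49668* (0.817) and the cAMP phosphodiesterase *Pde4b* (0.771). Without G11 and G12 the correlation of *G6pc* fell to 0.416 with *Gm49668* and to 0.225 with *Pde4b*, and stood at 0.803 with *Sarnp*. *Pck2*, with its few reads, was most like *Tifa* (0.811), *Vsig10* (0.772) and *Unc93a2* (0.749). Without G1 and G7, the mice farthest from the *Pck2* median, these were 0.573, 0.595 and 0.545. *Fbp1* and *Sds* had 84 and 79 genes with *r* above 0.8, *Pcx* 47 and *Pck1* 25, whereas *G6pc* had 2 and *Pck2* 1.

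The rest of the pathway was read from 7 lists, in the same fit, and none of their genes had an adjusted *p* below 0.05. The counts at an unadjusted *p* below 0.05 are to be read beside the 3.81% of all genes tested. Genes that bring lactate, amino acids, glycerol and fructose into the pathway numbered 31 tested, 13 higher and 18 lower with indole, 0 below that *p* and a median log2 fold change of −0.01. The most abundant of them per length, *Slc38a3* (582.8 RPKM), stood at 3151±208.5 and 3000±352.0 CPM. The reversible steps shared with glycolysis numbered 8, with 7 higher, 0 below that *p* and a median of 0.02.

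Around the release of glucose, 4 further genes had enough reads and 2 of them were lower at an unadjusted *p* below 0.05. *H6pd*, which oxidises glucose-6-phosphate inside the endoplasmic reticulum and so draws on the pool that *G6pc* hydrolyses, ran from 417.7 to 534.6 CPM with vehicle and from 305.7 to 427.8 CPM with indole, with the level under the whole vehicle range in 5 mice given indole. The log2 change was −0.27 (standard error 0.0832, unadjusted *p*=0.00417 from edgeR, exact permutation *p*=0.00291). *Slc37a1*, a relative of *Slc37a4*, was near 1 CPM, at 1.78±0.707 with vehicle and 1.17±0.265 with indole (log2 fold change −0.62, standard error 0.260, exact permutation *p*=0.0589). The glucose transporter *Slc2a2*, the most abundant of the list, stood at 672.6±55.6 and 621.2±73.8 CPM (log2 fold change −0.11, unadjusted *p*=0.179 from edgeR). *G6pc2* was at 0 in every mouse.

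Of 15 genes of the opposing steps, glycolysis and pyruvate oxidation, 11 were higher and 4 lower, with a median of 0.03. The list was not divided into genes that promote and genes that restrain these steps. Its highest log2 fold change was that of *Pdk4* (0.39). The only gene below an unadjusted *p* of 0.05 was *Pdhb*, a subunit of pyruvate dehydrogenase, at 135.3±11.9 and 156.5±20.9 CPM (log2 fold change 0.21, standard error 0.0845, exact permutation *p*=0.0303). Liver pyruvate kinase, *Pklr*, the most abundant, stood at 334.0±70.2 and 406.3±88.3 CPM (log2 fold change 0.28, unadjusted *p*=0.0741 from edgeR).

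The chain from the glucagon receptor through cAMP held 22 tested genes, 9 higher and 13 lower with a median of −0.01, and 4 were below an unadjusted *p* of 0.05. *Atf1*, a transcription factor of the CREB family, was lower in all 7 indole-treated mice (18.9 to 22.1 CPM) than in any vehicle-treated mouse (22.6 to 27.3 CPM) and is 1 of the 6 genes among the 12653 tested whose groups did not overlap. Its log2 fold change was −0.25 (standard error 0.0724, unadjusted *p*=0.00218 from edgeR, exact permutation *p*=0.000583, the smallest that 7 against 7 allow). Random relabelling of the mice separates the groups of a gene with a probability of 0.000583. The 6 genes, 0.0474% of those tested, are no more than such relabelling gives. The adenylate cyclase *Adcy9* (−0.39, exact permutation *p*=0.0589) and the salt-inducible kinase *Sik3* (−0.17, exact permutation *p*=0.0501), which restrains CREB coactivators, had lower means, and the calcineurin regulator *Rcan1* a higher one (0.25, exact permutation *p*=0.0262). The most abundant, *Gnas*, the stimulatory G protein, stood at 387.0±22.2 and 405.9±22.9 CPM.

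Transcriptional regulators of the pathway leaned lower, with 29 of 35 tested genes below the vehicle mean and a median of −0.08. Over all 12653 genes tested, 6164 were lower and the median was 0.00. The list was not divided into genes that raise and genes that lower gluconeogenesis. Of the 35, only 2 were below an unadjusted *p* of 0.05. These were *Foxa3*, a hepatocyte forkhead factor, at 26.3±7.79 and 19.4±4.03 CPM (log2 fold change −0.43, exact permutation *p*=0.0670), and the nuclear receptor *Nr2f2* at 27.6±2.08 and 24.1±2.86 CPM (−0.19, exact permutation *p*=0.0268). *Cebpa*, the most abundant, stood at 414.4±29.0 and 375.4±42.3 CPM (−0.14, unadjusted *p*=0.0839 from edgeR). Of 11 insulin-repressed FOXO1 targets 5 were higher and 6 lower, with a median of −0.01. The only one below an unadjusted *p* of 0.05 was *Cpt1a*, the gate of fatty acid entry into mitochondria, at 373.3±19.5 and 334.4±33.1 CPM (−0.16, exact permutation *p*=0.0210). *Apoc3*, the most abundant, stood at 2246±324.3 and 2478±380.0 CPM. The counts at an unadjusted *p* below 0.05 moved by up to 2 genes per list when single mice were left out.

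**Figure D5:**
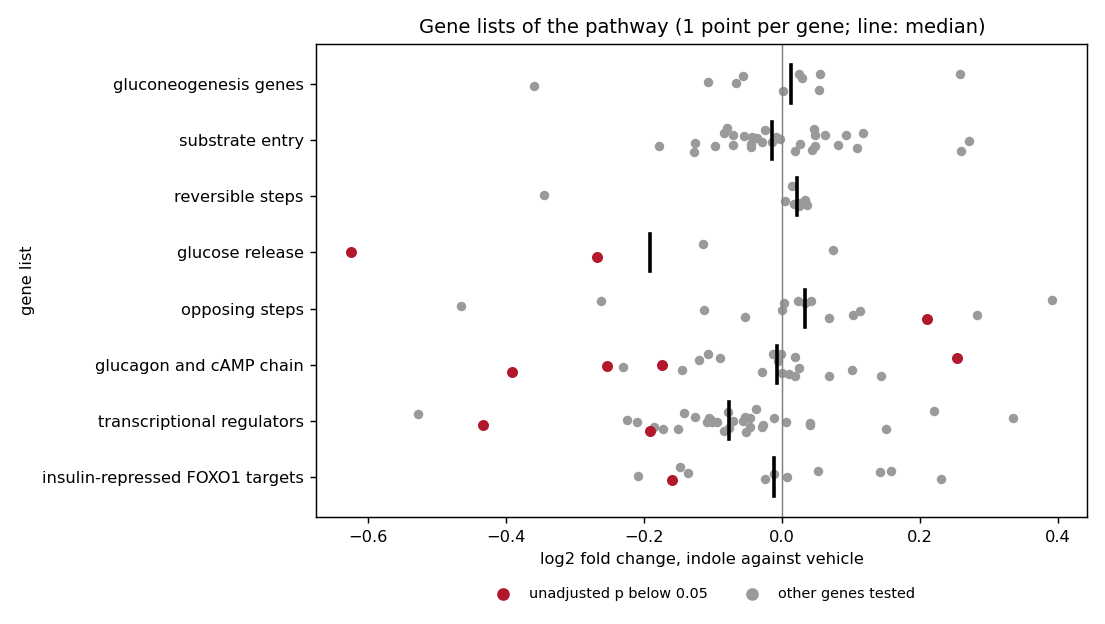
Log2 fold change, indole against vehicle, of the tested genes of each list (1 point per gene, line at the list's median, red where the unadjusted *p* from edgeR was below 0.05). The transcriptional regulators sit mostly to the left of 0, with 29 of 35 lower (6164 of 12653 over all genes tested) and a median of −0.08. The 10 gluconeogenesis genes sit on both sides of 0 with none in red.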

How the data were processed

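Liver mRNA was measured in 14 TALLYHO mice, grouped by the treatment in their labels. Reads had been aligned by the authors (HISAT2, GRCm38) and limited to unique alignments, and the deposited values are raw counts per gene without normalisation. The counting tool and its strand setting are not given in the sources used here. Total counts ranged from 15197498 to 21060376 per mouse, which leaves counting errors of 3.96%, 8.46% and 17.6% at the mean counts of *Foxo1*, *Ppargc1a* and *Pck2* and smaller ones for the other genes. No libraries of a group agreed within sampling noise (lowest chi-square per degree of freedom 16.8).

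The counts were tested with edgeR 4.0.16 in R 4.3.3 (TMM, filterByExpr, robust quasi-likelihood fit), with Benjamini–Hochberg adjustment over the 12653 genes that passed the filter. The standard error is the log2 fold change divided by the square root of *F*. Single genes were also compared by an exact two-sided permutation test over 3432 relabellings of the mice on mean log2 CPM (prior count 2). These *p* values set the difference between the groups against the spread between mice. Correlations used 100000 resamples (SciPy 1.17.1), or all 5040 orders within a group of 7. The procedures were tested on simulated data. RPKM divides CPM by the gene length in the table.

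The 10 genes, the lists and the indicator genes were chosen with earlier results of these data known. Named genes are all members, the list genes with an unadjusted *p* below 0.05 or the highest level per length, every indicator, the 3 genes most like each member, and the 3 pairs with the smallest *p* where none passed. Values of 1 indicator and of 1 list gene that this rule names are not reported here, though both stayed in the tests and counts. The pairs of *G6pc* with *Pck1* and *Ppargc1a* and that of *Sds* with *Gcgr* were named after their values were seen.

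Alternatives were DESeq2 1.42.0 (the authors' tool) on the same genes and on the 22535 with a read, limma 3.58.1 voom with quality weights, scaling by RLE or by the upper quartile, a fit without any filter on low counts, a minimum mean of 10 counts, the non-robust fit, 1 surrogate variable (sva 3.50.0) and leaving out each mouse. Those for the indicator relations (Spearman's ρ, group centring, RLE scaling, a prior count of 0.5, mice left out) and the coefficients of variation without each mouse were added after seeing the data. Promoter windows are from RefSeq (GRCm38.p6).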

Additional observations from a re-analysis of the deposited data

Results flagged for a closer look

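The gap of the lowest or highest mouse, as a share of its group's range, was set against Dixon's 95% critical value in 64 groups of 7. These covered the 10 genes, the 10 indicators, the marker sums, the total count and the number of genes with a read. The critical value was exceeded by 6 gaps, where chance at 1 in 20 gives 3.2. Gaps were taken on log2 CPM for genes and on CPM for sums of markers. None on these scales concerned a gluconeogenesis gene itself. On the CPM scale, added after seeing the data, *G6pc* in indole-treated G12 (0.611) and *Socs3* in vehicle-treated G13 (0.622) also passed, while *Per1* in G13 did not (0.430). *Tat* was far above the other vehicle-treated mice in G11 (gap 0.739 of the range), and *Klf15* far above the other indole-treated mice in G12 (0.646), the mouse with the highest *G6pc*, *Pck1* and *Ppargc1a*. *Per1* was far below the other vehicle-treated mice in G13 (0.655; 4.78 CPM). The summed Kupffer cell markers were far above the other indole-treated mice in G8 (0.776; 470.8 CPM). The summed skeletal muscle markers stood apart in vehicle-treated G6 (0.774) and indole-treated G7 (0.639), at sums of only 0.600 and 1.02 CPM.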

How the results depend on the processing

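Of the 10 genes, 0 had an unadjusted *p* below 0.05 when single mice were left out (14 fits) or under the 9 other settings. Directions near 0 were not stable. The log2 fold change of *Pck1* turned to −0.017 with limma voom, −0.00053 without a filter and −0.052 with 1 surrogate variable, and ranged from −0.10 (without G12) to 0.11 (without G2) when single mice were left out. That of *Sds* turned to −0.013 with 1 surrogate variable and ranged from −0.058 to 0.13 over the mice left out, that of *Slc37a4* from −0.010 to 0.052 and that of *Ppargc1a* from −0.19 to 0.031. Over all genes, the count at an unadjusted *p* below 0.05 rose from 482 to 1336 without a filter, and DESeq2 on the same genes gave 1 with an adjusted *p* below 0.05, where edgeR gave 0. The 6 relations with indicators stayed 6 under 3 other settings and became 1 by Spearman's ρ, 0 without the 2 farthest mice and 0 to 4 when single mice were left out. The causes were not tested. With 7 mice per group, intervals of *G6pc*, *Pck1*, *Pck2* and *Ppargc1a* remain wide. No paired analysis was possible because the groups share no replicate numbers.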
